A study of Mus musculus with 4 samples.

Results

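The small nucleolar RNAs (snoRNAs) of MC38 cells were followed in libraries from cells given PBS or 5-fluorouracil (5-FU). They were taken as every row of the deposited expression table whose symbol begins with Snord or Snora and a digit, which gave 138 of 36445 rows. Of these, 97 are C/D box RNAs (Snord) and 41 are H/ACA box RNAs (Snora). MC38 is a mouse colon cancer cell line, and each group held 2 libraries of polyadenylated RNA from the line: PBS alone, or 5-FU at 1 mM, both for 24 h. Whether the replicates were separate cultures is not labelled, so each p-value reflects the spread of these libraries alone, and that spread may be technical. All 9 epithelial marker genes lay under 1 FPKM in every library (summed level 0.780 to 1.53 FPKM in PBS and 1.74 to 1.87 in 5-FU), so the label of colon cancer was not matched by epithelial markers. Of 5 mesenchymal markers, Vim was abundant at 973 and 889.7 FPKM in PBS and 1069 and 1036 in 5-FU. Fn1 was at 389.2 and 588.0 FPKM in PBS and lower in 5-FU, at 226.7 and 218.3. Cdh2 lay at 5.34 to 5.78 FPKM, Col1a1 at 0.796 to 1.29, and Col1a2 under 1 FPKM in every library. Of 6 leukocyte markers, Cd68 alone exceeded 1 FPKM.

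C/D box RNAs carry fibrillarin, which they guide to sites of 2′-O-methylation in ribosomal RNA. H/ACA box RNAs carry dyskerin, which turns chosen uridines into pseudouridine, and a few snoRNAs of both classes serve in cleavage of the ribosomal RNA precursor instead. Most mammalian snoRNAs lie in introns of a host gene and are released when the spliced intron is debranched and trimmed. Mature snoRNAs have no poly(A) tail, whereas these libraries were built by poly(A) selection. The values therefore count reads that fell on snoRNA loci in such libraries. Mature snoRNA, unspliced host RNA and transcripts that retain the intron cannot be told apart in them, nor can fewer cells and less RNA per cell. 5-FU is a fluorinated uracil that inhibits nucleotide synthesis and is also built into RNA, where it can trap pseudouridine synthases.

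The sequences below, from GENCODE release M21 on GRCm38, show the largest rises and the highest levels of each class, and Snord89 and Snord100 as examples of a fall chosen after their values were seen. Capitals in the Snord sequences mark the C box (TGATGA within 20 bases of the 5′ end) and the D box (CTGA within 20 bases of the 3′ end), which bind the core proteins. Capitals in the Snora sequences mark the match to the H box (ANANNA) nearest the middle and the ACA that stands 3 bases before the 3′ end. Only the sense strand was searched, and the motifs do not overlap.
Snord111 (chr8:110838528-110838616, minus strand): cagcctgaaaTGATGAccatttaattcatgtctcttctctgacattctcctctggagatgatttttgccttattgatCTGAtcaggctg
Snord73a (chr3:86138791-86138858, minus strand): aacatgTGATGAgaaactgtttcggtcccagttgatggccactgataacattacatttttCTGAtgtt
Snord104 (chr11:106500993-106501062, plus strand): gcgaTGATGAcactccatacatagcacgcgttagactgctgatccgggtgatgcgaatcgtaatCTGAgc
Snord89 (chr1:39548745-39548854, minus strand): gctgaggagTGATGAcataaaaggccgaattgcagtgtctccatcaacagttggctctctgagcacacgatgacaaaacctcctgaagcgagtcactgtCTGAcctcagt
Snord100 (chr10:23785750-23785823, minus strand): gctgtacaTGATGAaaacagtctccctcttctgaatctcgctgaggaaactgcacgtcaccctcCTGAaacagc
Snora68 (chr8:70895759-70895889, minus strand): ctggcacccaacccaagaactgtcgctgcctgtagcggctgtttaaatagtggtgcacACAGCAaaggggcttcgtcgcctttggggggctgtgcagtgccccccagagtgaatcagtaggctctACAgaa
Snora41 (chr1:63179004-63179135, plus strand): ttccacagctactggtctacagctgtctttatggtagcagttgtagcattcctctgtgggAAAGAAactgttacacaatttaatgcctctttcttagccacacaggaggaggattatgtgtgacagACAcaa
Snora5c (chr11:6620319-6620454, minus strand): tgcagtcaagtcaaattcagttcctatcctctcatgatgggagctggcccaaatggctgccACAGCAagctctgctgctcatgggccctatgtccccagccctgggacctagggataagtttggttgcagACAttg

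The boxes of each class were found in most but not all rows of that class. Both the C and the D box were found in 68 of 97 Snord rows and in 0 of 41 Snora rows, against 17.7% of the 1369 other snoRNA-type transcripts of the release. Among the C/D rows tested below, 17 of 30 held both, and the D box letters alone were also found in 6 of 41 Snora rows. The ACA was found in 34 of 41 Snora rows and in 0 of 97 Snord rows, against 17.7% of those other transcripts. Snord rows were 64 to 238 bases long (median 84) and Snora rows 121 to 205 (median 132). Such short RNAs give few reads, and the deposited FPKM (fragments per kilobase of transcript, scaled to library size) could be turned back into reads. With the release's lengths, 96.7%, 100%, 98.1% and 96% of the snoRNA values above 0 in PBS replicates 1 and 2 and 5-FU replicates 1 and 2 came within 0.05 of a whole read. The depths that gave this were 41.34 and 41.62 M reads in PBS and 20.83 and 20.62 M in 5-FU, so 1 read is worth more FPKM in 5-FU.

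Most snoRNA rows had no read or too few to test. In all 4 libraries 73 rows stood at 0 FPKM, 54 of them C/D and 19 H/ACA. A count of 0 allows up to 3 reads over a group, which for these rows is 0.176 to 0.556 FPKM in PBS and 0.353 to 1.11 FPKM in 5-FU, for counting error only. The rows at 0 include all 17 copies of Snord116, a cluster in the imprinted Snhg14 locus. Also at 0 were Snord47, Snord78 and Snord80, although their host Gas5, a noncoding RNA gene known for its many snoRNAs, stood at 42.3 to 44.5 FPKM in every library. Snord14c, Snord14d and Snord14e inside the chaperone gene Hspa8 were at 0 beside a host level of 207 to 453.1 FPKM. Snora73a and Snora73b, H/ACA RNAs that act in ribosomal RNA cleavage, were at 0. Rcc1, taken as their host as the most abundant gene that spans them on their strand, was at 38.5 and 20.8 FPKM in PBS and 72.9 and 70.9 in 5-FU. These hosts were thus measured without a read on the snoRNAs named. How reads shared by overlapping genes were counted is not known, so a value of 0 does not show that the RNA was absent.

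A further 17 rows were above 0 and too low to test, with at most 10 reads in a library. Snord14a, inside the ribosomal protein gene Rps13, was at 0.834 and 0.829 FPKM in PBS and 0.552 and 0.557 in 5-FU. Snord13, an independently transcribed C/D RNA that acts on the small-subunit ribosomal RNA, had no read in PBS and 1 and 2 reads in the 5-FU libraries. At least 1 FPKM in at least 2 libraries was reached by 48 rows, 30 C/D and 18 H/ACA, and these were tested. A row could pass this filter through its higher group alone. Of 62 rows that overlap an annotated exon on their strand, 14 were tested, against 29 of 69 intronic rows and 5 of 7 rows outside a gene. Among the 48, 16 had at least 10 reads in every library and 7 had fewer than 10 in every library.

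Among the tested rows, more C/D rows were called lower than higher after 5-FU, and more H/ACA rows higher than lower. Some of these rows passed the filter through their higher group alone, and the counts changed with the filter, as given below. Of 30 tested C/D RNAs, 5 rose and 12 fell, and 13 did not pass. Of 18 tested H/ACA RNAs, 7 rose, 1 fell and 10 did not pass. A call means an adjusted p under 0.05 in limma (two-sided, Benjamini-Hochberg over all 11644 genes tested), and 53.3% of all tested genes were called, 22.1% higher and 31.2% lower. Of the C/D rows 16.7% were higher and 40.0% lower, and of the H/ACA rows 38.9% and 5.56%. The median log2 difference, on the log2(FPKM + 1) scale used throughout, was -0.15 for C/D and 0.42 for H/ACA, against -0.10 for all genes tested. This scale understates the change of low rows. The difference between the classes was not tested, since members of a class are not replicates. The groups did not overlap in 20 of 30 C/D rows (7 higher, 13 lower) and in 13 of 18 H/ACA rows (9 higher, 4 lower), against 81% of all genes (35.9% higher and 45.1% lower).

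**Figure D1:**
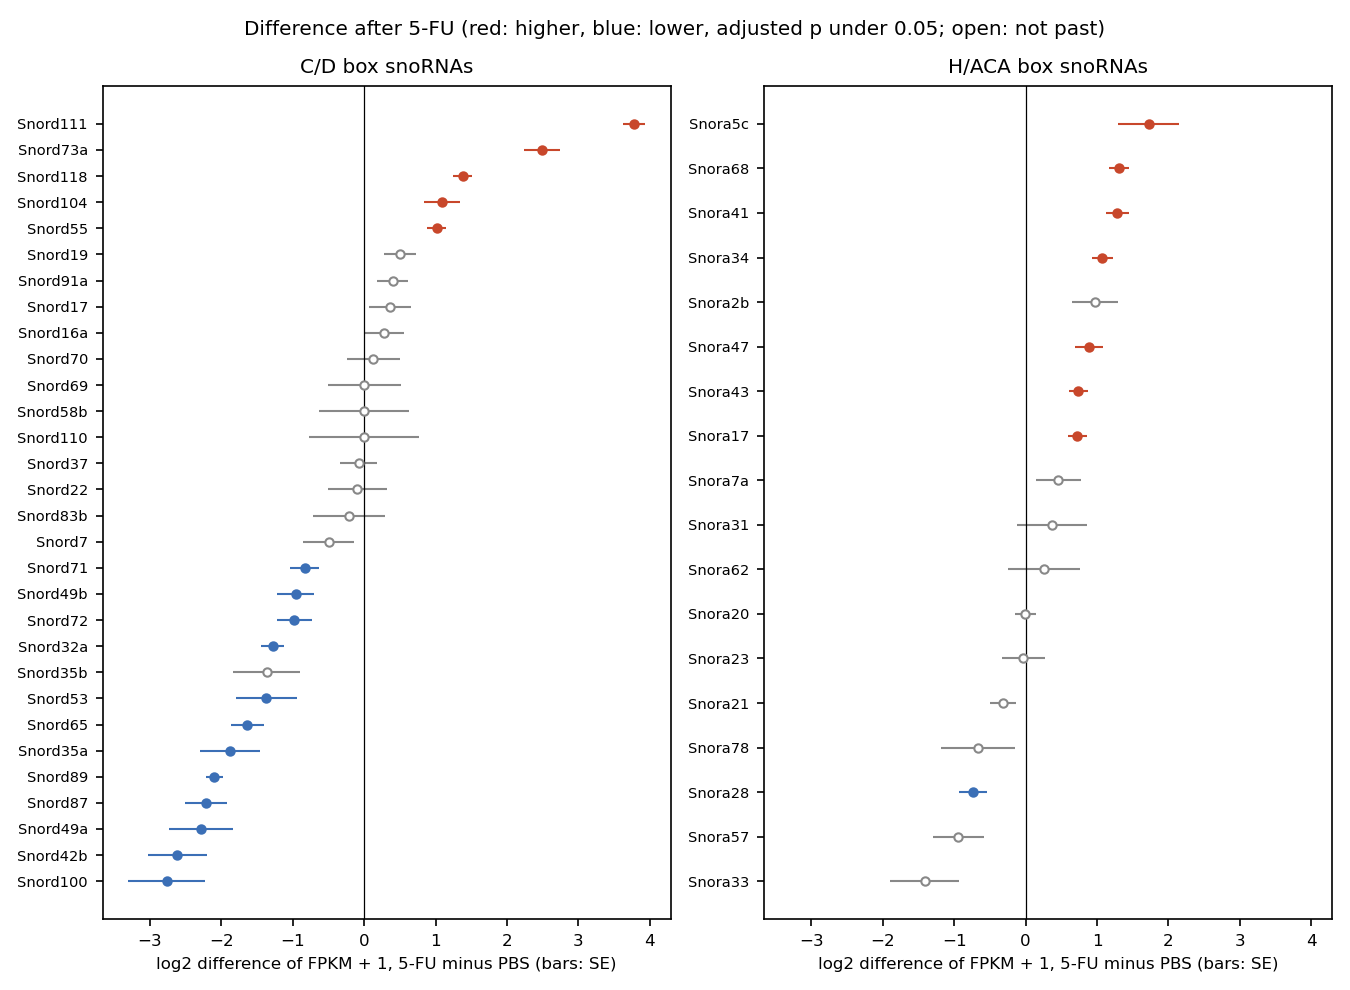
Log2 difference in FPKM + 1 (5-FU minus PBS, x axis) of each tested snoRNA, with its standard error as a bar, for C/D (left) and H/ACA (right) RNAs. Red and blue points are called higher and lower and open grey points did not pass; 12 of 30 C/D rows are blue and 7 of 18 H/ACA rows are red.

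Which libraries entered the comparison moved these counts widely. PBS replicate 1 exceeded PBS replicate 2 in 25 of 30 C/D and 13 of 18 H/ACA rows, against 57.3% of all genes, with median log2 differences between the PBS libraries of 0.61, 0.28 and 0.07. Without PBS replicate 1, 8 C/D rows were higher and 12 lower, with a median of 0.18, so the sign of the C/D median rests on that library. The H/ACA rows then held 11 higher and 3 lower, with a median of 0.81. Of all genes, 37.7% were then higher and 42.7% lower. Without PBS replicate 2, 5 C/D rows were higher and 16 lower (median -0.77) and 8 H/ACA rows higher and 4 lower (median 0.01), against 32.8% of all genes higher and 45.1% lower. With a 5-FU library left out, the PBS pair alone supplies the residual spread and the lone 5-FU library is assumed to vary like it, and the share of all genes called dropped to 4.26% (without replicate 1) and 5.08% (without replicate 2). C/D calls were then 2 higher and 3 lower, and 3 higher and 1 lower, while 0 H/ACA rows were higher and 1 and 0 lower in these limma fits. At an unadjusted p under 0.05, 7 H/ACA rows were higher and 1 lower without 5-FU replicate 1, and 6 and 0 without replicate 2. Of the 25 called snoRNAs, Snord111 kept its call in all 13 alternative settings, and Snord89 and Snord118 in all those in which they could be tested. Each of these RNAs passed the filter through its higher group alone, so keeping the call is not independent support. No called snoRNA changed sign in any of the 13 settings. With quantile normalization the split was 6 higher and 8 lower for C/D and 8 and 0 for H/ACA. Median-ratio scaling gave 5 and 11, and 8 and 0. Of all genes, 25.3% were higher and 24.3% lower with quantile normalization, and 27.4% and 27.6% with median-ratio scaling, so the C/D counts lie nearer the share of all genes under quantile normalization. These scalings moved the median of all genes to 0.02 and 0.01.

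**Figure D2:**
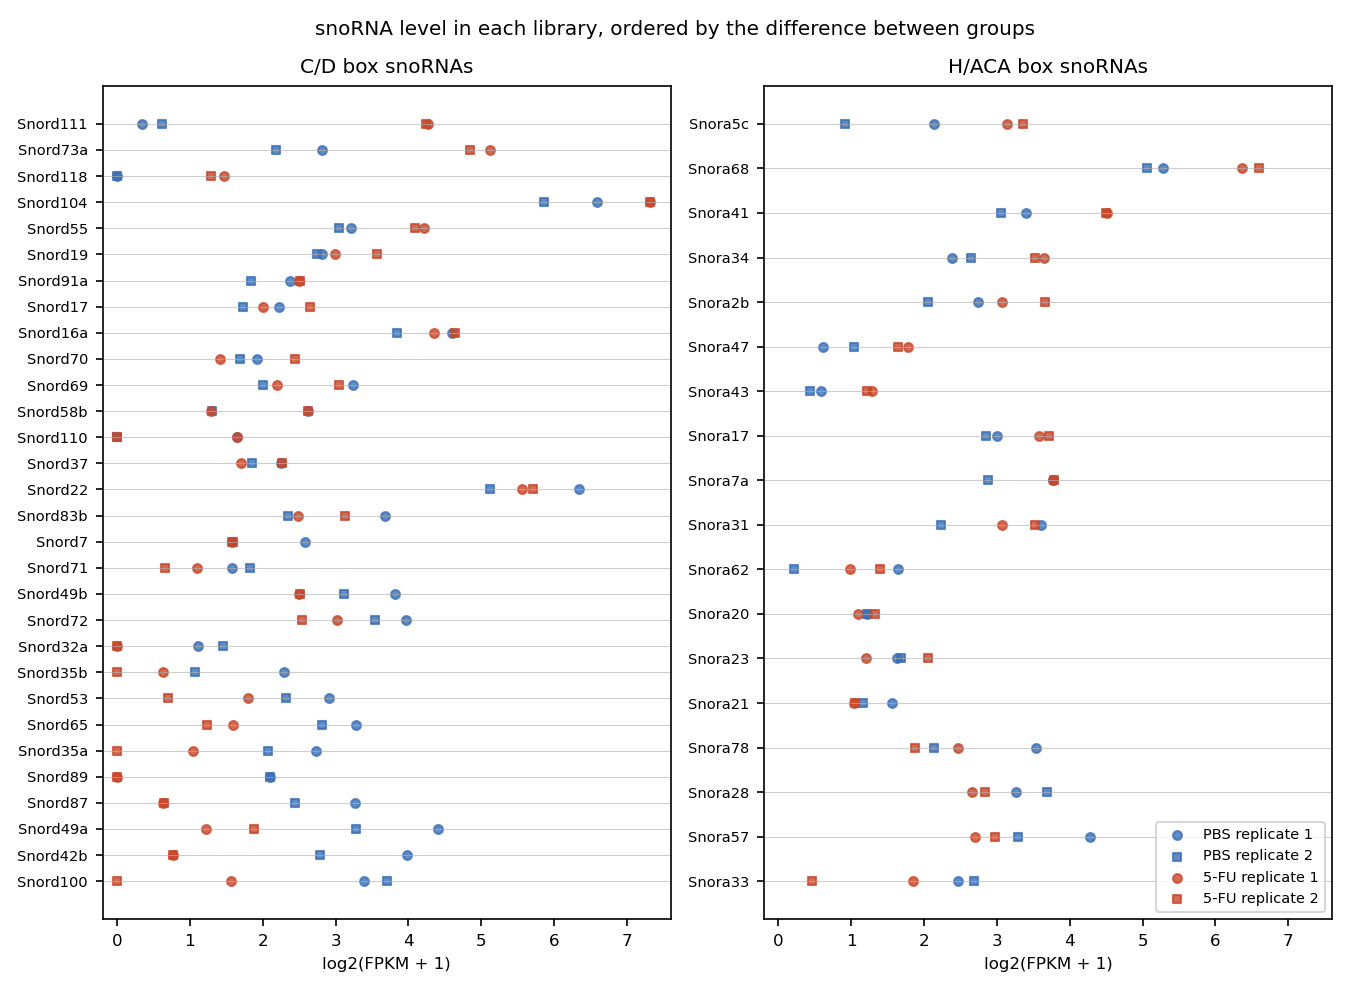
Level of each tested snoRNA as log2(FPKM + 1) in the 4 libraries (blue PBS, red 5-FU; circles replicate 1, squares replicate 2), ordered by the difference between groups. At the top the red points stand apart to the right, with Snord111 at 18.3 and 17.98 FPKM in 5-FU, and at the bottom of the C/D panel they stand to the left.

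Snord111 showed the largest rise of all snoRNAs. This C/D RNA inside Sf3b3, a splicing factor gene, was at 0.272 and 0.540 FPKM in PBS and at 18.3 and 17.98 in 5-FU. In reads this was 1 and 2 against 34 and 33, although the 5-FU libraries were the shallower ones. The groups stood far apart, at 0.406 ± 0.190 and 18.2 ± 0.257 FPKM (mean ± SD, with n = 2 in each group throughout), with a log2 difference of 3.78 ± 0.156 SE and an adjusted p of 0.0027. Its host was at 129.5 and 73.3 FPKM in PBS and 128.7 and 131.7 in 5-FU, which did not pass (adjusted p = 0.272). An annotated exon on its strand covers 69 of its 89 bases, so reads of that exon may be counted on it.

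Snord73a, which lies in an intron of the ribosomal protein gene Rps3a1, rose 6.44-fold. It stood at 6.05 and 3.53 FPKM in PBS and at 33.9 and 27.8 in 5-FU, from 17 and 10 reads and 48 and 39 reads. Both 5-FU libraries lay well above both PBS libraries (log2 difference 2.49 ± 0.254 SE, adjusted p = 0.00383). Without 5-FU replicate 1 its adjusted p was 0.0519. Rps3a1 itself rose by 0.48 log2 (adjusted p = 0.0455).

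Snord104 was the most abundant C/D row in every library. It lies outside any annotated gene on its strand. Its level was 95.0 and 57.3 FPKM in PBS and 158.5 and 158.6 in 5-FU, a 2.08-fold rise (adjusted p = 0.0233; 0.123 at most over the alternatives). With 167 to 275 reads a library it is among the best sampled members. The 5-FU libraries agreed closely and the PBS libraries were spread (76.2 ± 26.7 against 158.5 ± 0.128 FPKM). Snord104 and the next 2 rows made up 51.4% and 46.9% of the summed C/D FPKM in PBS and 67.1% and 63.9% in 5-FU, so class sums mostly follow a few rows.

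Snord118, known as U8, is transcribed from its own promoter and is needed for processing of the large-subunit ribosomal RNAs. It had no read in either PBS library and 5 and 4 reads in the 5-FU libraries, or 1.78 and 1.44 FPKM. Against 3 reads over the PBS group, it was at least 6.002-fold higher (adjusted p = 0.00354). Snord118 passed the filter through 5-FU alone, and PBS values of 0 add no spread, so this p holds little of the counting error. A gene model elsewhere, Gm24208, matches it at 96.2% identity and was at 0 in all libraries. Snord55 completed the rising C/D rows. It went from 8.27 and 7.30 FPKM to 17.6 and 16.0, a 2.16-fold rise without overlap (adjusted p = 0.00553).

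**Figure D3:**
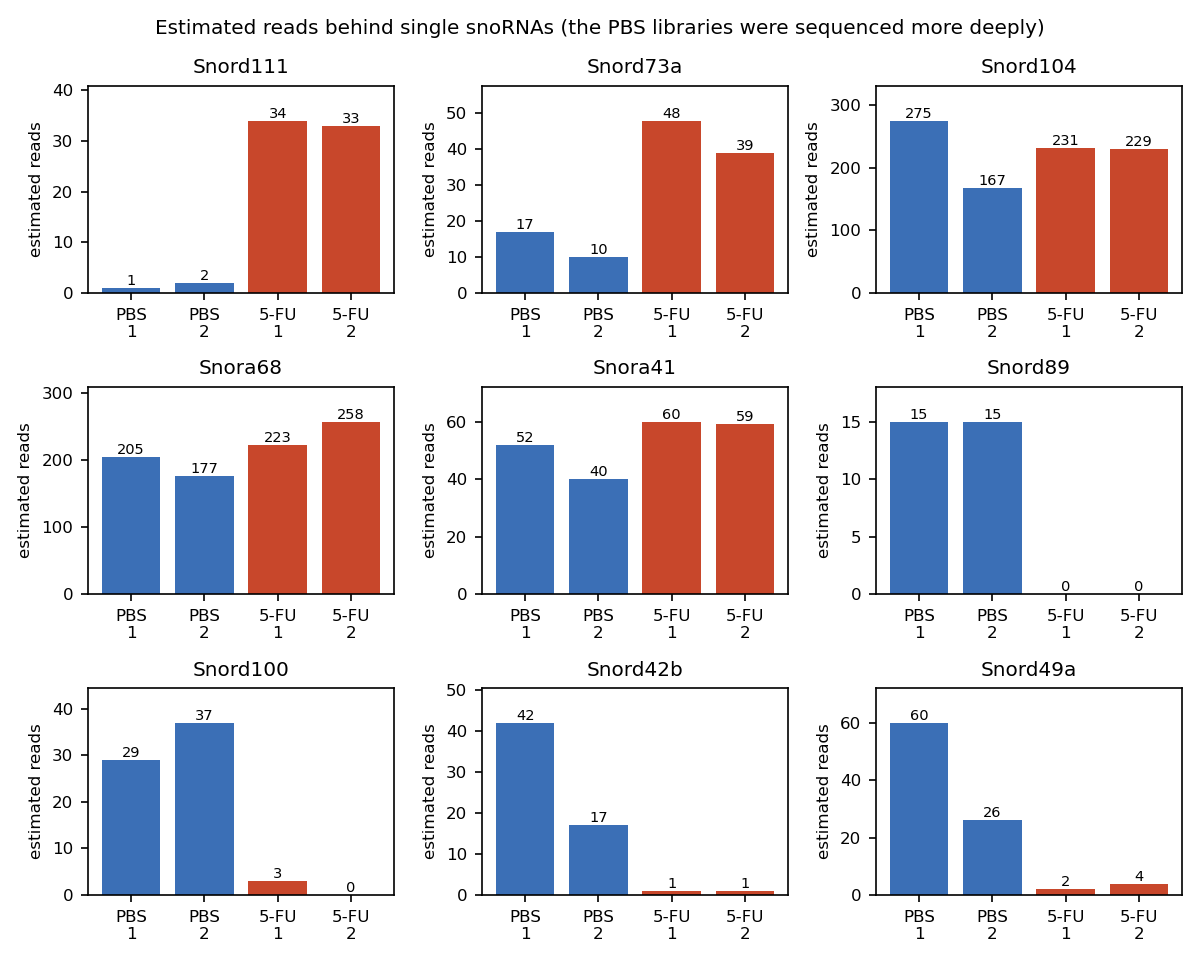
Estimated reads on 9 snoRNAs in each library (bars; blue PBS, red 5-FU), at depths of about 41 M reads in PBS and 21 M in 5-FU. Snord111 has 34 and 33 reads in 5-FU against 1 and 2 in PBS, and Snord89 has 15 and 15 in PBS against 0 and 0.

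Among the falling C/D rows, Snord100 changed most on the log2 scale. It lies inside Rps12, a ribosomal protein gene, and was at 9.48 and 12.01 FPKM in PBS and at 1.95 and 0 FPKM in 5-FU. The reads were 29 and 37 against 3 and 0. Both 5-FU libraries lay below both PBS libraries (log2 difference -2.77 ± 0.538 SE, adjusted p = 0.0142), yet the call was lost with a pseudocount of 0.1 and with no filter on low values. Snora33, an H/ACA RNA in the same gene, stood at 4.50 and 5.40 FPKM in PBS and 2.61 and 0.376 in 5-FU, also without overlap (adjusted p = 0.062). Rps12 rose by 0.67 log2 (921.9 and 1060.5 to 1593 and 1559 FPKM, adjusted p = 0.016). Within this gene the host and both snoRNA rows thus differed in sign, though Snora33 did not pass. Annotated Rps12 transcripts hold each of these snoRNAs whole, so reads of host exons may be counted on them or withheld from them.

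Snord42b, in Rpl23a, fell 14.8-fold, from 14.7 and 5.92 FPKM to 0.696 and 0.703, or from 42 and 17 reads to 1 and 1 (adjusted p = 0.00809). The same gene holds Snord42a and Snord4a, both at 0 in every library. Snord87, inside the noncoding host gene Snhg6, fell 11.8-fold, from 8.62 and 4.42 FPKM to 0.552 and 0.557 (adjusted p = 0.00591). Its host was not analysed here. In both RNAs the 5-FU value is 1 read a library, so the size of the fold is loosely set. Both passed the filter through PBS alone.

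Snord89 was the fall with the smallest standard error. It had 15 reads in each PBS library (3.30 and 3.28 FPKM) and no read in either 5-FU library. Set against 3 reads over the 5-FU group, it was at least 4.997-fold lower (log2 difference -2.10 ± 0.120 SE, adjusted p = 0.0027). Reads were equal within each group, so this standard error holds little of the counting error of so few reads. The gene model that holds Snord89 on its strand, Gm15832, rose from 0.502 and 0.105 FPKM to 2.31 and 1.80 (adjusted p = 0.00918).

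The noncoding gene 2410006H16Rik holds Snord49a, Snord49b and Snord65 in its introns, and all of these fell. Snord49a was at 20.2 and 8.68 FPKM in PBS and 1.33 and 2.69 in 5-FU (adjusted p = 0.0145), a 7.16-fold difference. Snord65 was at 8.73 and 6.01 against 2.001 and 1.35 FPKM (adjusted p = 0.00649), and Snord49b at 13.1 and 7.68 against 4.67 and 4.715 (adjusted p = 0.0348). Neither group overlapped the other in any of them. The host measured 132.4 and 211.5 FPKM in PBS and 223.5 and 232.1 in 5-FU and did not pass (adjusted p = 0.185). The PBS libraries order differently for the host than for its snoRNAs, with replicate 2 higher for the host and replicate 1 higher for the snoRNAs.

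Rpl13a, a ribosomal protein gene, holds Snord32a, Snord33, Snord34 and Snord35a, C/D RNAs of its introns. Snord35a fell from 5.64 and 3.20 FPKM to 1.07 and 0 (adjusted p = 0.0213). Snord32a fell from 1.17 and 1.74 FPKM, 4 and 6 reads, to no read (adjusted p = 0.00516). Snord32a passed the filter through PBS alone, and values of 0 in the treated group add no spread. Its p thus holds little of the counting error of so few reads. Snord33 and Snord34 were at 0 in all libraries. Here the host fell too, from 259.9 and 389.4 to 190.7 and 171.6 FPKM (adjusted p = 0.0354). Snord35b, a like-named C/D RNA, was at 3.89 and 1.105 against 0.552 and 0 FPKM and did not pass (adjusted p = 0.0632).

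The remaining falls were smaller. Snord72, in an intron of Rpl37, fell 2.13-fold (14.6 and 10.7 to 7.11 and 4.79 FPKM, adjusted p = 0.0271), and its host rose by 0.70 log2. Snord71, in the adaptor protein gene Ap1g1, fell with its host, by 0.83 log2 each, on 9 reads or fewer a library. Snord53 passed narrowly (6.51 and 4.005 to 2.46 and 0.622 FPKM, adjusted p = 0.0498), a call lost in 9 of 12 alternatives. Its host, the ribosome biogenesis gene Wdr43, fell by 0.88 log2.

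The C/D rows that did not pass include abundant ones. Snord22, inside the noncoding host Snhg1, had the second highest C/D level, at 80.2 and 33.8 FPKM in PBS and 46.1 and 51.6 in 5-FU, with the 5-FU values between the PBS values (adjusted p = 0.864). Without PBS replicate 1 its log2 difference was 0.52 (adjusted p = 0.00181), and without PBS replicate 2 it was -0.71 (adjusted p = 0.000522), so its direction depends on which PBS library is kept. Snord16a, in Rpl4, was at 23.2 and 13.3 against 19.4 and 24.0 FPKM (adjusted p = 0.448). Snord19 and Snord69 share the host Gnl3, a nucleolar GTPase gene that rose by 1.59 log2. Their values were 6.05 and 5.69 against 6.95 and 10.8 FPKM for Snord19, and 8.47 and 3.004 against 3.601 and 7.27 FPKM for Snord69 (adjusted p = 0.124 and 0.997). Snord70 and Snord91a, in Nop58 and Tsr1, likewise did not pass (adjusted p = 0.788 and 0.177) where the hosts rose by 1.21 and 1.29 log2.

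Snora68 was the most abundant H/ACA row in every library and the best sampled to rise. This RNA was at 37.9 and 32.5 FPKM in PBS and at 81.7 and 95.5 in 5-FU, from 205 and 177 reads and 223 and 258 reads. The groups, at 35.2 ± 3.81 and 88.6 ± 9.73 FPKM, did not overlap (2.52-fold, log2 difference 1.31 ± 0.141 SE, adjusted p = 0.00408). Its adjusted p was 0.0629 at most, with a 5-FU library left out. A gene model elsewhere, Gm22661, matches Snora68 at 95.3% identity and stayed between 0.910 and 4.78 FPKM.

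Snora41, in an intron of the translation elongation factor gene Eef1b2, rose 2.59-fold. Its values were 9.53 and 7.28 FPKM in PBS and 21.8 and 21.7 in 5-FU (adjusted p = 0.0051), with the host at 167.6 ± 13.6 and 196.3 ± 2.04 FPKM (adjusted p = 0.149). Snora34, in an intron of the chromatin regulator gene Kansl2, rose from 4.21 and 5.22 to 11.5 and 10.5 FPKM (2.34-fold, adjusted p = 0.00647). Snora2b in the same gene was at 5.65 and 3.16 against 7.36 and 11.7 FPKM, without overlap, and did not pass (adjusted p = 0.0588). Kansl2 was at 31.2 ± 1.15 and 38.6 ± 1.13 FPKM (adjusted p = 0.0674).

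Snora5c had the largest H/ACA rise, 3.997-fold, and its host Tbrg4, a mitochondrial RNA regulator gene, rose as well. Snora5c stood at 3.38 and 0.883 FPKM in PBS and 7.77 and 9.27 in 5-FU (adjusted p = 0.027), and Tbrg4 at 41.1 and 26.4 against 128.6 and 124.1 FPKM (adjusted p = 0.00481). The log2 differences were 1.72 and 1.91. A near-identical gene model elsewhere, Gm23346 (98.5% identity), had at most 0.357 FPKM, so reads may be shared.

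Snora17 and Snora43 lie near each other on chromosome 2, outside any annotated gene on their strand, and both were called higher. Snora17 went from 6.96 and 6.19 to 10.9 and 12.1 FPKM (1.75-fold, adjusted p = 0.0129), on 30 to 38 reads a library. Snora43, whose reads were not whole, went from 0.5005 and 0.351 to 1.44 and 1.32 FPKM (adjusted p = 0.0109), on 2 to 4 reads. A second, overlapping Snora43 entry was at 0 throughout. Snora47, in an intron of Zbed3, rose from 0.526 and 1.045 to 2.44 and 2.11 FPKM (adjusted p = 0.0184), on 3 to 7 reads a library. The rises of Snora43 and Snora47, and their sizes, are thus loosely set.

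Snora28, inside the translation initiation factor gene Eif5, was the H/ACA row called lower. It was at 8.57 and 11.9 FPKM in PBS and 5.29 and 6.11 in 5-FU (adjusted p = 0.033), a call lost with median-ratio scaling and quantile normalization. Eif5 was at 109.3 and 50.2 FPKM in PBS and 168.4 and 174.1 in 5-FU (adjusted p = 0.0513). Snora57, on the strand opposite Lbhd1, was at 18.5 and 8.77 against 5.52 and 6.88 FPKM and did not pass (adjusted p = 0.0828). The other abundant H/ACA rows, Snora7a in Rpl32 and Snora31 in Tpt1, did not pass either (adjusted p = 0.270 and 0.546). Snora7a was at 12.6 and 6.35 against 12.7 and 12.8 FPKM and Snora31 at 11.2 and 3.70 against 7.39 and 10.4 FPKM, where PBS replicate 2 was the low library in both.

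**Figure D4:**
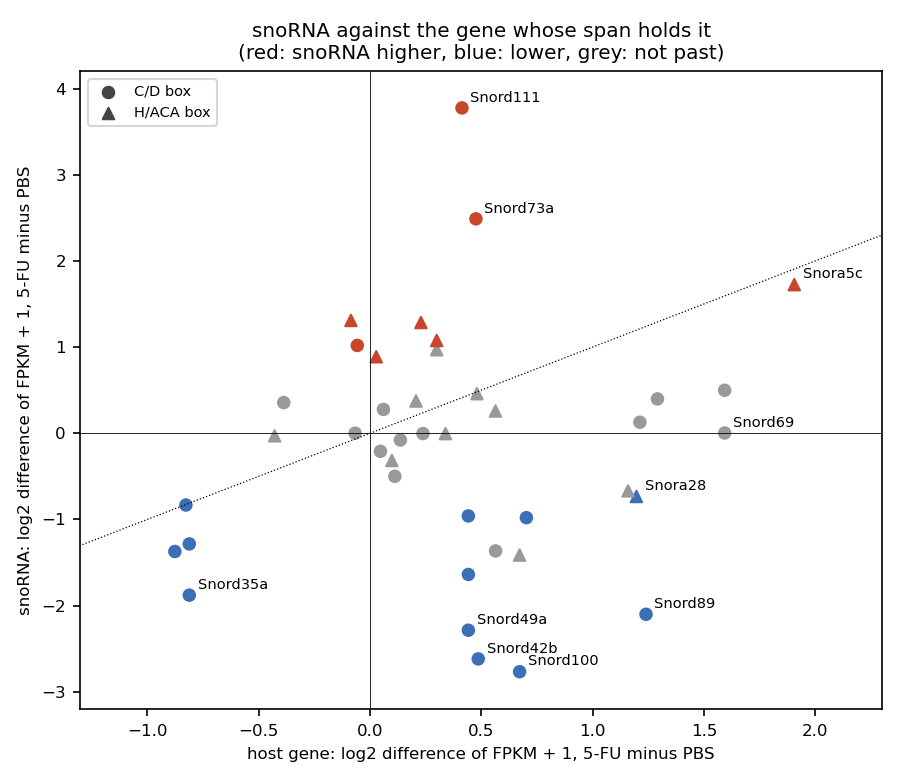
Log2 difference in FPKM + 1 (5-FU minus PBS) of 41 tested snoRNAs (y axis) against that of the gene whose span holds them on the same strand (x axis); circles are C/D, triangles H/ACA, and the dotted line marks equal differences. Snord100, Snord42b, Snord49a and Snord89 lie below 0 with hosts above 0, and Snora5c lies near the line.

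The measured differences of host and snoRNA showed little relation to each other. Of the 48 tested snoRNAs, 43 lie within a gene on the same strand, and for 41 that gene (35 genes in all) was tested. The signs of snoRNA and host were the same in 20 and opposite in 21. Across these 41 snoRNAs Pearson's r was 0.10 and Spearman's rho -0.02, given as a description, since snoRNAs share hosts and all points share the same libraries. Of the 12 of these that fell, the host rose in 3 (Snord89, Snord100 and Snord72), fell in 4 and did not pass in 5. Among the 8 that rose, the host rose in 2 (Snord73a and Snora5c) and did not pass in 6. The median log2 difference was 0.34 for the hosts and 0.00 for the snoRNAs. Of the 48 tested snoRNAs, 16 had at least 10 reads in every library. A relation hidden by counting error therefore cannot be told apart from the lack of one.

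By position within the host, the calls lay near the shares of all genes (22.1% higher and 31.2% lower) for intronic and exon-overlapping rows. Of 29 wholly intronic snoRNAs 5 rose and 10 fell, of 14 that overlap an annotated exon 3 rose and 3 fell, and of 5 outside any gene on their strand 4 rose. Of 16 snoRNAs in ribosomal protein genes 3 rose and 5 fell, and of 27 in other genes 5 rose and 8 fell. Of the 5 C/D and H/ACA rows outside a gene, Snora57 was the one that did not rise.

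The genes for the proteins that snoRNAs carry were higher after 5-FU in the H/ACA class. All 4 H/ACA core genes rose, where 22.1% of all tested genes were called higher. Dkc1, which encodes the pseudouridine synthase dyskerin, went from 31.0 and 14.9 FPKM to 53.0 and 57.3 (2.41-fold, adjusted p = 0.0326). Nhp2 rose 1.97-fold (adjusted p = 0.00639), Gar1 1.97-fold (adjusted p = 0.0347) and Nop10 1.52-fold (adjusted p = 0.0116). Of 4 C/D core genes, 2 rose. Nop58 went from 150.1 and 78.3 to 248.0 and 257.5 FPKM (2.21-fold, adjusted p = 0.0326) and Snu13, whose protein binds the kink-turn of C/D RNAs, rose 1.89-fold (adjusted p = 0.00891). The methyltransferase gene Fbl was at 122.4 ± 33.8 and 176.6 ± 3.86 FPKM (adjusted p = 0.083) and Nop56 at 40.9 ± 21.2 and 45.2 ± 1.67 FPKM (adjusted p = 0.611). PBS replicate 1 exceeded replicate 2 in all 8 genes, as it did in most snoRNA rows.

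**Figure D5:**
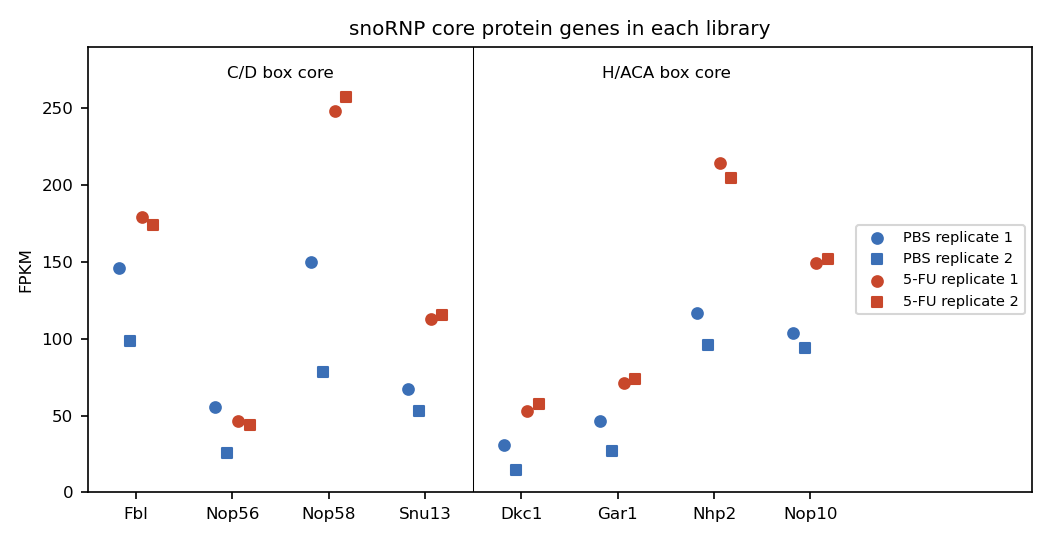
FPKM (y axis) of the genes for C/D core proteins (left) and H/ACA core proteins (right) in each library; blue PBS, red 5-FU, circles replicate 1 and squares replicate 2. Both 5-FU libraries lie above both PBS libraries in 7 of 8 genes, Nop56 being the exception.

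Genes for assembly and for processing were called in both directions, as were all tested genes (22.1% higher and 31.2% lower). Of 14 assembly and trafficking genes, 5 rose and 3 fell. Coil, which encodes the Cajal body protein coilin, rose 3.91-fold (adjusted p = 0.00343), Phax, an adaptor for RNA transport, 2.41-fold (adjusted p = 0.0036), and Ruvbl1, an ATPase of the assembly complex, 2.01-fold (adjusted p = 0.00411). Pih1d1 and Shq1, an assembly cofactor and a dyskerin chaperone, fell by 0.85 and 0.84 log2, and Ruvbl2, the partner of Ruvbl1, fell by 0.41 log2. Of 23 measured processing and decay genes, 6 rose and 5 fell, near those shares. Dbr1, which opens the intron lariats from which snoRNAs are trimmed, rose 3.003-fold, from 16.7 and 9.83 to 39.1 and 40.6 FPKM (adjusted p = 0.0092). The exosome gene Exosc3 rose by 0.97 log2, while Parn, a deadenylase that trims H/ACA RNA ends, and the exosome helicase gene Mtrex fell by 0.77 and 0.72 log2. Of 10 tested noncoding host genes 6 rose, against 22.1% of all genes, among them Snhg20, Snhg15 and Zfas1 (3.32-, 3.36- and 2.53-fold), and Gas5 was at 43.4 ± 0.898 and 43.4 ± 1.55 FPKM (adjusted p = 0.996).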

How the data were processed

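RNA from MC38 cells was sequenced after poly(A) selection, per the labels' protocols. The authors deposited one table of FPKM values; STAR 2.4.1a, Picard 2.9.0 and GRCm38 are named in the submitters' processing notes. Counting program, annotation and strand setting: not given in the sources used here; overlapping genes may share reads. Gene IDs were matched to GENCODE M21 (36295 of 36445; all 138 snoRNA rows). A host is the most abundant gene, small RNA genes aside, that spans the snoRNA on its strand. The 2 groups were tested by limma 3.58.1 in R 4.3.3 (lmFit, then eBayes with trend) on log2(FPKM + 1), keeping genes that reached 1 FPKM in 2 or more of 4 libraries; every adjusted p is from this fit unless an alternative is named. Folds are ratios of mean FPKM. An exact permutation test of 2 against 2 libraries cannot pass the threshold, so none was run. Reads were estimated as FPKM times length times the depth at which small RNA values became whole.

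The members and lists were chosen with earlier results of these data known. The naming rule took, per class, the 10 largest rises and 6 largest falls past the threshold without overlap, the 5 highest levels, Snord13, Snord14, Snord118 and Snora73 rows, snoRNAs of Gas5 and Snhg1, hosts, core proteins, and up to 3 genes per direction of other lists. Other snoRNAs were named after their values were seen. Alternatives were pseudocounts of 0.1 and 0.5, other filters, 2 scalings, no trend, the replicate number as a block, and each library left out. A copy elsewhere means at least 90% identity over at least 80% of the length (blastn). The host genes of some named snoRNAs are not reported here.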

Additional observations from a re-analysis of the deposited data

How the results depend on the processing

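Counting error limits most snoRNA values: the median over tested rows of the highest library was 29 reads. Under the 9 settings that kept all libraries, C/D rows called higher stayed within 1.5 times 5. C/D rows called lower were 6 with no filter on low values and 5 with a mean FPKM of 5 or more, where 14 C/D rows were left, against 12. H/ACA rows called lower were 0 with median-ratio scaling, 0 with quantile normalization and 3 with replicate number as a block; at an unadjusted limma p under 0.05, 2 and 0 were lower under the scalings. With a mean FPKM of 5 or more the H/ACA median was 0.72 and 11 rows were left. The mean filter tests fewer rows and no filter tests more (43 C/D and 22 H/ACA); the cause of each move was not tested.

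Deviations of equally numbered libraries had a correlation of -0.01, so equal numbers showed no shared deviation across genes. With 2 libraries in each group this cannot tell whether equal numbers mark a shared culture or day. The replicate block gave 5 C/D rows higher and 13 lower, and 8 H/ACA rows higher and 3 lower.

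Leaving out 1 library at a time gave 2 to 8 C/D rows higher and 1 to 16 lower, with medians of -0.77 to 0.18, and 0 to 11 H/ACA rows higher and 0 to 4 lower, with medians of 0.0060 to 0.81.

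With quantile normalization, these log2 differences changed sign, none of them a call: Snord83b to 0.084, Snord37 to 0.25, Snord110 to 0.11, Snora23 to 0.22 and Snora20 to 0.15. With median-ratio scaling, these log2 differences changed sign, none of them a call: Snord22 to 0.029, Snord37 to 0.018, Snord110 to 0.053, Snora23 to 0.055 and Snora20 to 0.067. With 1 library left out at a time, the log2 differences that changed sign, none of them called with all libraries, ranged as follows: Snord7 -1.002 to 0.0039, Snord83b -0.88 to 0.46, Snord22 -0.71 to 0.52, Snord37 -0.36 to 0.20, Snord110 -0.83 to 0.82, Snord58b -0.66 to 0.66, Snord69 -0.62 to 0.62, Snord70 -0.39 to 0.65, Snord16a -0.10 to 0.65, Snora78 -1.37 to 0.034, Snora23 -0.46 to 0.40, Snora20 -0.13 to 0.12, Snora62 -0.45 to 0.97, Snora31 -0.31 to 1.06 and Nop56 -0.30 to 0.78.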

Other observations

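Among other short RNAs in these libraries, more were called higher than lower after 5-FU. Such rows could pass the filter through 5-FU alone, where 1 read is worth more FPKM. Of 92 other tested snoRNA-type genes, most of which carry only gene model names, 39 were higher and 7 lower, with a median log2 difference of 0.75. The small nuclear RNA class had 36 higher and 6 lower among 62 tested (median 1.07), and of 57 tested microRNA genes 20 were higher and 14 lower (median 0.30). Over all 322 other tested genes with under 300 bases of exon, 44.4% were higher and 10.6% lower, with a median of 0.72. Beside these, the C/D rows had 16.7% higher and 40.0% lower and the H/ACA rows 38.9% and 5.56%. Protein-coding genes had 20.2% higher and 33.1% lower, with a median of -0.16. These are counts from the same limma fit with no test between classes. The part of depth, of the filter and of poly(A) selection in them was not tested.

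Of 48 tested snoRNAs, 10 had a copy elsewhere in the annotation, 8 of them H/ACA and 2 C/D. The best identity ranged from 91.5% (Snora33) to 98.5% (Snora5c). Copies with a row in the table were at most 4.99 FPKM in any library. For 10 of the 48, an annotated transcript of an overlapping gene holds the whole snoRNA.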
